A study of Mus musculus with 336 samples.

Results

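The 24-time-point course of Bmal1-/- (KO) mouse skin fibroblasts was examined for expression that still followed a 24 h wave without Bmal1. The course comprises 72 of the 336 samples of the series, which share 24 expression columns because the 3 sequencing runs of a time point have 1 value per gene between them. KO cells are compared with the wild-type (WT) fibroblast course, also 72 samples and 24 columns. Both lines have a C57BL/6 background, were grown to confluence, received 100 nM dexamethasone (a glucocorticoid that sets cellular clocks to a common phase) for 15 min, were washed, and were kept at 37 °C in constant darkness. Harvests began 48 h after the pulse and followed every 3 h for 3 days, labelled CT00 to CT69. No untreated course was analysed here, so KO and WT cells share the pulse. The labels give the genotype Bmal1-/- with no further allele, and they do not say whether a genotype is 1 cell line or several animals. KO liver slices, with the same pulse and harvest times, are used for a few values only.

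The circadian clock of mammalian cells is a transcriptional loop. BMAL1 (gene symbol Arntl) and CLOCK bind E-boxes and drive Per, Cry and Nr1d genes, whose products repress them, as well as outputs such as Dbp and Tef. In fibroblasts a glucocorticoid pulse aligns the loops of single cells so that the wave can be seen in bulk RNA. Without Bmal1 this loop is broken in mice, and the question here is what else varies with a period of 24 h.

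Each gene was fitted with a 24 h cosine and sine and a linear time trend on log2(FPKM + 1), where FPKM is the number of sequenced fragments of a gene, divided by transcript length and by library size. Amplitude here means the distance from the middle of the fitted curve to its crest on that scale. The peak is given in h after CT00, modulo 24. A gene was tested if its mean was at least 1 FPKM and the authors' status was OK in all columns, which left 14737 genes in KO cells. A gene was called if its p, adjusted over all genes tested, was below 0.05.

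No gene was called in KO cells, 0 of 14737 (0%), and the lowest adjusted p was 0.110. At an unadjusted p below 0.05 there were 875 genes (5.94%), and 205 genes (1.39%) had a p below 0.01. An ordinary F test per gene called 0 as well and found 890 genes at an unadjusted p below 0.05. In WT cells 5 of 14678 genes were called (0.0341%) and 1061 (7.23%) had an unadjusted p below 0.05. Replacing the linear trend by a level for each day called 179 genes in KO cells, of which 159 (88.8%) had a linear trend at an adjusted p below 0.05, against 26.3% of all genes. A level for each day leaves the slope within a day in the values, so that fit cannot tell trend and wave apart. Prewhitening, which allows for correlated neighbouring times, called 2.

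The 24 h period did not stand above its neighbours in KO cells. The share of genes with an unadjusted p below 0.05 was 4.32% at 12 h, 4.81% at 18 h, 5.04% at 20 h, 5.68% at 22 h, 5.94% at 24 h, 6.1% at 26 h, 6.1% at 28 h and 6.13% at 30 h. In WT cells it was 3.81% at 12 h and 5.44% at 20 h, with its highest value, 7.78%, at 26 h and 6.77% at 30 h. WT cells had 13 called genes at 26 h and 10 at 28 h, and KO cells had 0 at each of the 8 periods.

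**Figure D1:**
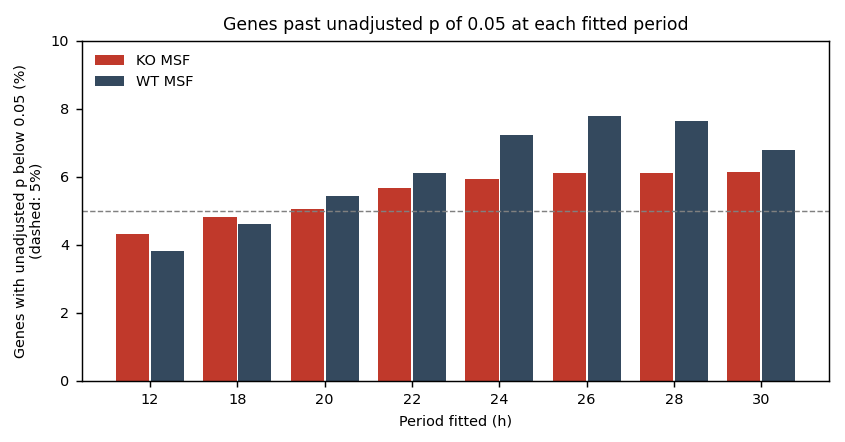
Share of genes with an unadjusted p below 0.05 (%, vertical axis) for each fitted period (h, horizontal axis) in KO (left bars) and WT fibroblasts (right bars), with a dashed line at 5%. The KO shares run from 4.32% at 12 h to 6.13% at 30 h without a maximum at 24 h, and the WT shares have their maximum, 7.78%, at 26 h.

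The genes with the lowest p in KO cells are described next. Their p-values ranked them, so these values and their peaks are a description of the ranking. The first 25 genes had unadjusted p-values between 7.4e-06 and 5.75e-04. The last of them was Tspan5 at 5.75e-04, and the next gene, Gm15674, had 6.14e-04. Of the 25, 10 are numbered gene models and 15 carry names. They comprise 16 protein-coding genes, 4 lincRNAs, 3 small RNAs and 2 pseudogenes in the GENCODE annotation of GRCm38. Amplitudes ran from 0.068 to 2.27 with a median of 0.159, beside a median of 0.048 over all genes tested. Peaks fell between 2 and 8 h in 16 genes and between 14 and 20 h in 7. In all 25 the peak fitted to each single day lay within 4 h of the overall peak. This held for 193 of the 205 genes with an unadjusted p below 0.01 and for 3286 of all 14737 genes tested. The days are part of the fit that ranked the genes, so their agreement goes with the ranking and is no separate evidence.

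The promoters of Clk4, Srsf5 and Per1 are shown because the first pair are the leading genes with a searched motif of the CRE or ETS kind and a named role in splicing, and Per1 is the one clock gene below an unadjusted p of 0.05 in KO cells. Each is 250 bases before to 50 after a transcription start, from RefSeq on GRCm38.p6, with matches in capitals. Clk4 lies at chr11:51262864-51263163 (+) and holds 1 CRE, the site of cAMP-responsive factors. Srsf5 lies at chr12:80945249-80945548 (+) and holds 2 ETS sites, 1 on each strand. Per1 lies at chr11:69098699-69098998 (+), the first of its 2 starts listed, and holds 1 E-box.
Clk4: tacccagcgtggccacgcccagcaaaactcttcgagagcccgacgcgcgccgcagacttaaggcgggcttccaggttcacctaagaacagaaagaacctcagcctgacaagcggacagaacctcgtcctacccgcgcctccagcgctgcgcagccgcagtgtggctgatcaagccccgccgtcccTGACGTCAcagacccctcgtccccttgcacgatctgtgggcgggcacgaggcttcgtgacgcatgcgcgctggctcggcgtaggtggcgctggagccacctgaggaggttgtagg
Srsf5: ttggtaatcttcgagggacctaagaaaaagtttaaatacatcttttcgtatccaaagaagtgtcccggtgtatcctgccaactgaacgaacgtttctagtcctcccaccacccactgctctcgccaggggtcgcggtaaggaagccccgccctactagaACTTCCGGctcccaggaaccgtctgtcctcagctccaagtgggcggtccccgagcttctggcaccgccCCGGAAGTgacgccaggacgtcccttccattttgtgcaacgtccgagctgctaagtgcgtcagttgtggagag
Per1: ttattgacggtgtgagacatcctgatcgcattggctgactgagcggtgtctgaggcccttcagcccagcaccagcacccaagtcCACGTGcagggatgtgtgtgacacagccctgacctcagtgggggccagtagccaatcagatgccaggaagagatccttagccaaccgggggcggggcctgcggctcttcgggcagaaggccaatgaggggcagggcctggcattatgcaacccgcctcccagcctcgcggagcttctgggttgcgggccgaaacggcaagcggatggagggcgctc

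Motifs were searched on both strands as the letters CACGTG (E-box), TGACGTCA (CRE), CCGGAAGT (ETS), ACANNNTGT (glucocorticoid receptor), GAANNTTC (heat shock element) and, by name, the RORE bound by ROR and REV-ERB receptors. None of the 15 leading genes with a promoter in the table had the E-box, against 8.09% of 27025 promoters. The ETS letters were in 2 of the 15 (13.3%), Srsf5 and Flad1, against 4.31% of all promoters, and the CRE in 1 (6.67%), Clk4, against 2.03%. Among the clock lists the E-box was in 6 of 26 matched genes (23.1%), which were Per1, Cry1, Bhlhe41, Ciart, Tef and Tspan4. Nr1d1, Dbp and the second Per1 start had no E-box in the window searched. Of the 317 genes with an unadjusted p below 0.05 and a peak at 2 to 8 h, 190 matched a promoter. The E-box was in 11.1% of them and the ETS letters in 10.5%. Of the 291 with a peak at 14 to 20 h, 189 matched, with 8.99% and 7.41%. The CRE was in 3.68% of the early and 5.29% of the late promoters. The glucocorticoid receptor letters were in 7.37% of the early and 3.17% of the late promoters, against 7.9% of all. The heat shock element was in 6.84% and 3.7%, against 9.04%, and the RORE in 0% of both, against 0.259%. The E-box, ETS and CRE shares thus lay above those of all promoters in both sets, and the other shares lay below. Among the 15 leading genes the glucocorticoid receptor letters were in 1 (Flad1), the heat shock element in 1 (Rpl28) and the RORE in 0. The 27025 promoters include genes not tested here, and no share was computed over the tested genes alone. No difference of these shares was tested.

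Snapc3 (chr4:83417724-83467676, +), a subunit of the complex that activates small nuclear RNA genes, ranked highest of the named genes. It had a lowest, median and highest value of 10.7, 11.9 and 15.6 FPKM in KO cells, against 11.4, 13.9 and 18.5 FPKM in WT cells. The KO libraries of CT27, CT06 and CT30 were the highest, and the levels of the genotypes overlapped. Its KO amplitude was 0.143 ± 0.024 (SE, 24 libraries) with a peak at 5.56 h and an adjusted p of 0.173, and its WT amplitude was 0.020 with an unadjusted p of 0.835. By clock hour it averaged 14.1 ± 1.32 FPKM at 6 h and 11.2 ± 0.309 FPKM at 21 h in KO cells (SD, n = 3 days).

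Clk4 (chr11:51261730-51281766, +) encodes a kinase that phosphorylates SR splicing factors, and its promoter with the CRE is shown above. It ranged over 55.1, 61.8 and 69.7 FPKM in KO cells and 29.4, 36.5 and 43.8 FPKM in WT cells (lowest, median, highest), so the levels did not overlap. The KO amplitude was 0.102 ± 0.018 with a peak at 5.27 h and an adjusted p of 0.212. The WT amplitude was 0.073 with an unadjusted p of 0.161. KO cells averaged 66.8 ± 3.69 FPKM at clock hour 6 and 58.1 ± 0.257 FPKM at 21 h (SD, n = 3 days). The fitted peak was 1.15 times the trough in KO cells, while the authors' interval around a single Clk4 value reached a median of 22.3% of the value to either side.

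Srsf5 (chr12:80945504-80950507, +), an SR splicing factor with the ETS letters in the promoter above, had 109, 119 and 131 FPKM in KO cells and 57.4, 63.8 and 70.8 FPKM in WT cells (lowest, median, highest). Its amplitude was 0.068 ± 0.014 with a peak at 4.42 h in KO cells, and 0.086 with a peak at 7.42 h and an unadjusted p of 5.18e-04 in WT cells. Rsrp1 (chr4:134923592-134927671, +), an arginine and serine rich protein, had 212, 252 and 286 FPKM in KO cells and 180.6, 223 and 263 FPKM in WT cells. Its amplitude was 0.107 ± 0.022 with a peak at 5.00 h in KO cells, and 0.133 with a peak at 7.32 h and an unadjusted p of 3.41e-04 in WT cells. The Srsf5 levels of the genotypes did not overlap, and those of Rsrp1 did. WT cells had no part in choosing either gene, and the lower of the WT adjusted p-values was 0.228, so neither was called there.

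Other named genes with an early peak have varied roles. Ogt (chrX:101640060-101684351, +), the transferase that adds O-GlcNAc to proteins, had 86.7, 101 and 115 FPKM in KO cells and 50.2, 61.3 and 68.6 FPKM in WT cells. The levels did not overlap. Its amplitude was 0.099 ± 0.020 with a peak at 4.85 h in KO cells, and 0.135 with a peak at 5.99 h and an unadjusted p of 8.45e-04 in WT cells. Senp3, a SUMO protease, had the widest wave of the abundant named genes, 0.313 ± 0.062 with a peak at 5.80 h. Its KO values were 35.3, 55.5 and 88.9 FPKM, against 40.8, 50.6 and 63.8 FPKM in WT cells, and the highest KO values were at CT54, CT30 and CT27. Its WT amplitude was 0.082 with an unadjusted p of 0.265. Flad1, the FAD synthase, peaked at 3.39 h with an amplitude of 0.208 ± 0.043, and Nipal3 at 6.18 h with 0.271 ± 0.057. Neither had a WT unadjusted p below 0.65.

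The late group was led by different genes. Cebpb, a transcription factor of the C/EBP family, had 81.3, 94.8 and 114 FPKM in KO cells and 70.8, 74.5 and 87.7 FPKM in WT cells. The levels overlapped, and the KO libraries of CT66 and CT69 were the highest. Its amplitude was 0.098 ± 0.021 with a peak at 18.9 h in KO cells, and 0.069 with a peak at 17.7 h and an unadjusted p of 0.039 in WT cells. KO cells averaged 107 ± 5.19 FPKM at clock hour 21 and 88.2 ± 3.78 FPKM at 6 h, and WT cells averaged 86.0 ± 1.59 FPKM at 18 h and 74.2 ± 2.78 FPKM at 6 h (SD, n = 3 days). Ubald1 peaked at 19.6 h (0.098), Zfp626 at 18.1 h (0.159), Tspan5, a tetraspanin, at 17.7 h (0.102), and Acad9, an assembly factor of respiratory complex I, at 17.5 h (0.244), with no WT unadjusted p below 0.11. Outside both windows were Tle2, a Groucho family corepressor, at 0.663 h (0.165) and the ribosomal protein gene Rpl28 at 11.2 h (0.113).

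**Figure D2:**
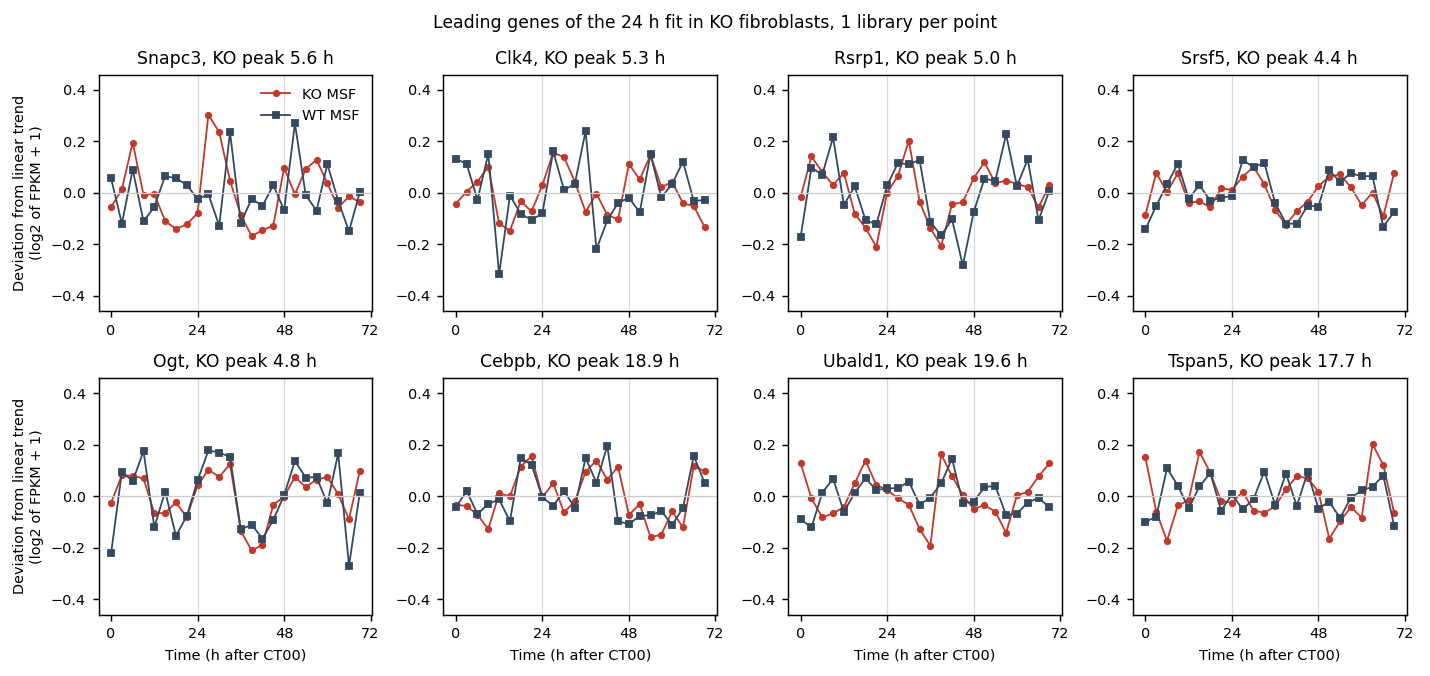
Deviation of log2(FPKM + 1) from each gene's linear trend (vertical axis) against time after CT00 (h, horizontal axis) for 8 leading genes, with 1 point per library, KO as circles and WT as squares. The KO points of Snapc3, Clk4, Rsrp1, Srsf5 and Ogt crest near 5 h of each day and those of Cebpb, Ubald1 and Tspan5 between 17.7 and 19.6 h, within a spread of points of about the size of the wave.

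The numbered models include the first gene of the ranking, Gm24615, an annotated small nucleolar RNA. It was listed at 0 in 15 of 24 KO libraries and reached 44.3 FPKM, with 2.27 ± 0.353 as its amplitude and a peak at 15.6 h. The 8 largest amplitudes among genes with an unadjusted p below 0.01 and a mean of at least 5 FPKM were all short RNAs, Snord53, Gm44471, Gm24916, Gm24762, Gm24615, n-R5s215, Gm26147 and Mir1193. They spanned 1.95 to 3.10 and were listed at 0 in 6 to 16 of the 24 KO libraries. The libraries were made from poly(A) RNA and their values are scaled by length. Like every tested gene, these 8 had the authors' status OK in all 24 KO columns, so their zeros are not flagged as failed. Small RNAs made up 7.34% of the 875 genes with an unadjusted p below 0.05 and 9.16% of all genes tested. The genes of lowest p that peaked within 1 h of Gm24615 were Gm44354, Snord53, Crtap, Pitpnb and Ppm1d, by fitted peak over the 24 libraries.

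Peak times across the wider set were bimodal as they were over all genes tested, and somewhat more so. Of the 875 genes with an unadjusted p below 0.05, 317 (36.2%) peaked at 2 to 8 h, against 27.9% of all genes, and 291 (33.3%) at 14 to 20 h, against 28.5%. The fullest 2 h bin was 4 to 6 h with 150 genes and the emptiest 12 to 14 h with 31. In WT cells 33.2% of the genes with an unadjusted p below 0.05 peaked at 2 to 8 h and 30.9% at 14 to 20 h. A share of the protein-coding early genes, 147 of 219 (67.1%), have an annotated transcript with a retained intron, against 116 of 235 late genes (49.4%) and 60.8% of all protein-coding genes tested. The difference was not tested.

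**Figure D3:**
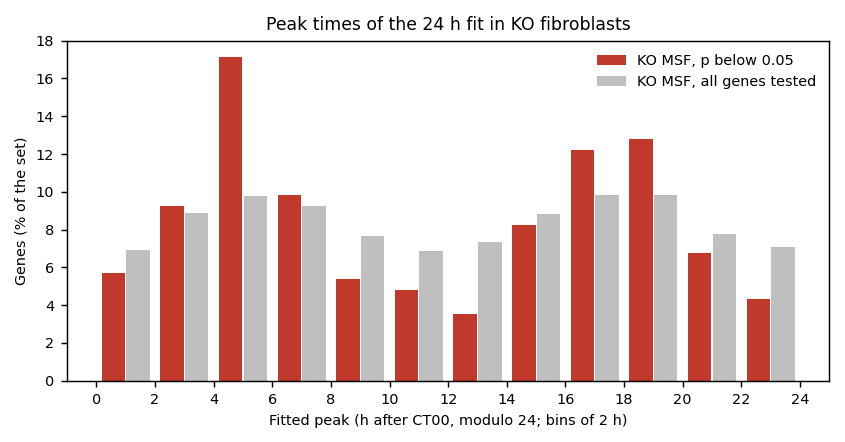
Share of genes (%, vertical axis) by fitted peak in bins of 2 h (horizontal axis, h after CT00 modulo 24) for KO genes with an unadjusted p below 0.05 (left bars) and all KO genes tested (right bars). Both sets have humps at 2 to 8 h and 14 to 20 h, and the bin of 4 to 6 h holds 150 of the 875 genes.

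The set was looked for again in libraries that had no part in choosing it. Of the 25 leading genes 24 were tested in WT cells, where 7 (29.2%) had an unadjusted p below 0.05 and 0 were called. The share over all genes tested in both genotypes was 7.46%, 1011 of 13551. The 7 were 6720427I07Rik, Ogt, Rsrp1, Srsf5, BC003965, Cebpb and Gm21781, and in all but BC003965 the WT peak was within 4 h of the KO peak. The WT peak was within 4 h of the KO peak in 14 of 24 leading genes (58.3%), against 37.9% of all genes. Of the 875 genes, 837 were tested in WT cells, where 93 (11.1%) had an unadjusted p below 0.05 and 412 (49.2%) peaked within 4 h of KO. For the early set of 317 genes the WT share was 49 of 301 (16.3%), and for the late set 26 of 275 (9.45%). For the 7 leading genes named above, deviations from trend and wave were compared between KO and WT cells over the 24 time points. Their Pearson r was 0.484, 0.529, 0.329, 0.606, 0.260, 0.489 and 0.663, in the order named. Over 14789 genes 7.87% had an r above 0.4. The WT course may thus not be independent of the KO course for these genes. KO and WT libraries of a time point carry the same index code and were harvested at the same labelled time. The part of shared deviations or shared codes in these shares was not tested.

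In KO liver slices, a table normalised apart from the fibroblast one, 1594 of 14224 genes were called (11.2%) and 29.3% had an unadjusted p below 0.05. Slice genes were filtered by a mean of at least 1 FPKM and not by status. Of the 24 leading genes tested there, 5 (20.8%) had an unadjusted p below 0.05, and 3 were called. Tle2 had an adjusted p of 0.0163 and a peak at 2.38 h, beside 0.663 h in KO fibroblasts. Rpl28 had 0.0443 with a peak at 15.6 h, and Tspan5 had 0.0481 with a peak at 14.6 h. Of the 875 genes, 223 of 766 tested in slices (29.1%) had an unadjusted p below 0.05, a share near that of all slice genes.

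Within the KO course few genes recurred between the first and the second run of 12 libraries. Library index codes ran through one set of 12 from CT00 to CT33 and another from CT36 to CT69. Fitted alone, the first series had 816 genes with an unadjusted p below 0.05 (5.54%) and the second 805 (5.46%). There were 59 genes in both, 7.23% of the first list and 7.33% of the second, and 34 of the 59 had peaks within 4 h. Of the first list 40.4% peaked within 4 h in the second series, against 35.3% of all genes.

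Arntl itself was at 5.67, 6.84 and 7.84 FPKM in KO cells and 8.79, 10.6 and 11.9 FPKM in WT cells (lowest, median, highest), with no overlap. A value per gene does not say which exons the reads came from and is no test of the deletion. Other levels of the genotypes are set side by side here without a test. KO and WT libraries were sequenced in separate pools, so pool and genotype cannot be told apart, and in bulk RNA fewer cells of a type and less RNA per cell cannot be told apart.

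Of 31 clock genes and outputs tested in KO cells, 0 were called, as were 0 of all 14737 genes, and 1 had an unadjusted p below 0.05, beside 5.94% of all KO genes and 7.23% of all WT genes. At these list sizes the KO counts do not set clock genes apart from other genes. Among the activators, which are Arntl, CLOCK and their relatives and the ROR genes, 0 of 5 tested had an unadjusted p below 0.05 in KO cells, against 1 of 5 in WT cells, Arntl. Among the repressors it was 1 of 14 in KO cells, Per1, against 4 of 14 in WT cells, which were Per3, Cry1, Nr1d1 and Nfil3. Among the outputs it was 0 of 12 in KO cells, against Dbp, Tef, Tsc22d3 and Leo1 of 12 in WT cells. The median amplitude of the lists was 0.040, 0.043 and 0.044 in KO cells, under the 0.048 of all KO genes, and 0.086, 0.089 and 0.053 in WT cells, beside 0.045 for all WT genes.

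Nr1d1, the nuclear receptor REV-ERB alpha that represses Arntl, had 3.72, 4.60 and 6.33 FPKM in KO cells and 8.60, 12.8 and 15.9 FPKM in WT cells. Its KO amplitude was 0.024, with an upper 95% limit of 0.125, and its WT amplitude was 0.252 ± 0.033 with a peak at 6.21 h and an adjusted p of 0.0059. By clock hour the KO means ran from 4.31 ± 0.491 FPKM at 9 h to 5.05 ± 1.26 FPKM at 21 h, and the WT means from 11.01 ± 2.27 FPKM at 18 h to 14.5 ± 2.22 FPKM at 6 h (SD, n = 3 days). The difference of the waves had an amplitude of 0.269 and an adjusted p of 0.135, so it did not pass. It was called in 2 of 18 other settings (adjusted p from 0.0239 to 0.954) and in 1 of 24 fits without 1 time point (0.0298 to 0.399). Nr1d1 overlaps Thra on the other strand, and whether counting used the strand is not given in the sources used here.

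Dbp, an output factor driven by E-boxes, had 5.38, 6.42 and 9.39 FPKM in KO cells and 4.10, 7.39 and 9.50 FPKM in WT cells, so the levels overlapped. Its KO amplitude was 0.045, with an upper 95% limit of 0.160, against 0.330 ± 0.047 with a peak at 8.71 h and an adjusted p of 0.0139 in WT cells. At clock hour 9 KO cells averaged 5.88 ± 0.759 FPKM, against 8.97 ± 0.844 FPKM in WT cells (SD, n = 3 days). The difference of the waves, 0.358, had an adjusted p of 0.0697. Over 18 other settings at a period of 24 h it was called in 6, with an adjusted p from 0.0024 to 0.954, and it was called in 3 of 24 fits without 1 time point (0.0232 to 0.282). Per3, a period gene, had an amplitude of 0.046 in KO cells and 0.201 ± 0.034 in WT cells, with an adjusted p of 0.156 for the difference. Cry1, a cryptochrome, had 0.025 in KO cells and 0.152 ± 0.031 in WT cells.

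Per1, the period gene that glucocorticoids also induce, is the one exception in KO cells. It had 22.9, 28.7 and 33.3 FPKM in KO cells and 16.7, 20.97 and 25.3 FPKM in WT cells. Its KO amplitude was 0.1002 ± 0.035 with a peak at 19.5 h and an unadjusted p of 0.030, and its WT amplitude was 0.048 with an unadjusted p of 0.540. Its adjusted p in KO cells was 0.791, and without CT57 the unadjusted p was 0.104. The KO maximum was at CT69 and the next at CT48, which fall at neighbouring clock hours on different days. Among clock genes with a larger fitted wave but no p below 0.05, Per2 had an amplitude of 0.191 with an upper limit of 0.430 and Arntl2 0.171 with an upper limit of 0.365.

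**Figure D4:**
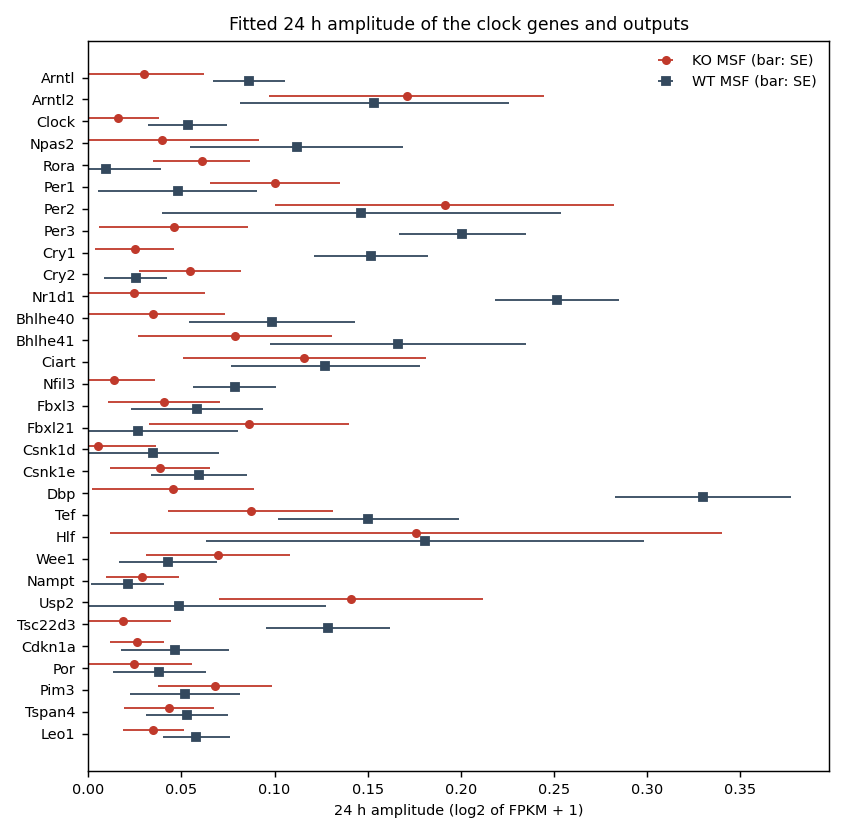
Fitted 24 h amplitude (log2 of FPKM + 1, horizontal axis, bars are SE) of each tested clock gene and output in KO (circles) and WT fibroblasts (squares). Nr1d1, Dbp, Per3 and Cry1 have WT amplitudes of 0.152 to 0.330 beside KO amplitudes of 0.024 to 0.046, and Per2, Arntl2 and Hlf have wide error bars in both.

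The 5 genes called in WT cells were Nr1d1, Dbp, Nr1d2, Junb and 4632415L05Rik. Nr1d2, the paralogue of Nr1d1, averaged 0.563 FPKM in KO cells and was not tested there, and had a WT amplitude of 0.209 with a peak at 7.02 h. The numbered model 4632415L05Rik had a fitted wave of 0.102 that crested at 4.45 h (unadjusted p of 0.105) in KO cells, and 0.133 with a peak at 6.22 h and an adjusted p of 0.0456 in WT cells. Junb had 0.294 ± 0.080 with a peak at 18.1 h and an unadjusted p of 0.00525 in KO cells, and 0.103 with a peak at 17.6 h and an adjusted p of 0.0456 in WT cells.

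The interaction of genotype and wave called 1 of 15065 genes (0.00664%), and 705 (4.68%) had an unadjusted p below 0.05. The called gene was BC003965, whose difference had an amplitude of 0.186 and an adjusted p of 0.0128. It peaked at 2.08 h with an amplitude of 0.089 in KO cells and at 12.7 h with 0.0997 in WT cells, close to opposite in phase. KO cells averaged 5.82 ± 0.189 FPKM at clock hour 3 and 5.14 ± 0.115 FPKM at 12 h, and WT cells averaged 4.71 ± 0.325 FPKM at 3 h and 5.99 ± 0.300 FPKM at 12 h (SD, n = 3 days). The call held in 13 of 18 other settings at a period of 24 h and was lost in each setting that dropped a day or kept one index series. It held in 19 of 24 fits without 1 time point, with the highest adjusted p, 0.0617, without CT60.

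Gene groups outside the clock were counted from lists of related genes, which were chosen with earlier results of these data known. The 5.94% over all genes is set beside the counts, which are a description and no test of the groups. Immediate early and AP-1 genes, many of them transcription factors induced within minutes by serum and stress, had the most members below an unadjusted p of 0.05. In KO cells 7 of 13 tested (53.8%) had an unadjusted p below 0.05, namely Fosl2 with a peak at 2.12 h and Jun, Junb, Jund, Egr1, Ier2 and Ier3 with peaks from 17.6 to 18.96 h. In WT cells it was 3 of 12, Junb, Jund and Ier2. None had an adjusted p below 0.05 in KO cells. The median amplitude of the list was 0.059, beside 0.048 over all genes.

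The list mean was highest in 5 libraries of the first 2 days, CT18, CT21, CT36, CT39 and CT45. Junb, an AP-1 subunit, was at 12.9, 17.5 and 33.5 FPKM in KO cells (lowest, median, highest), and at 21.8, 28.2 and 35.7 FPKM in WT cells. Its KO values stood out at CT18 (25.6), CT21 (33.5), CT36 (25.8), CT39 (23.9) and CT45 (30.4 FPKM). Ier2 was at 23.1, 27.3, 21.8, 17.8 and 27.6 FPKM in the same libraries, against a KO median of 13.2 FPKM, and Egr1 at 42.1, 51.4, 40.97, 37.5 and 43.9 FPKM against 33.6 FPKM. The mean deviation of the list from its linear trend was 0.148, 0.290, 0.207, 0.183 and 0.364 in these 5 libraries, and no library of the third day exceeded 0.007. CT18 and CT21 fell at clock hours 18 and 21 of the first day, and CT36, CT39 and CT45 at clock hours 12, 15 and 21 of the second. With relative depth as a covariate the count was 4, without the 5 deepest libraries 3, and over the fits without 1 time point it was 4 to 7, lowest without CT03, CT18, CT54 or CT60. No fit left out the 5 libraries of highest mean together.

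**Figure D5:**
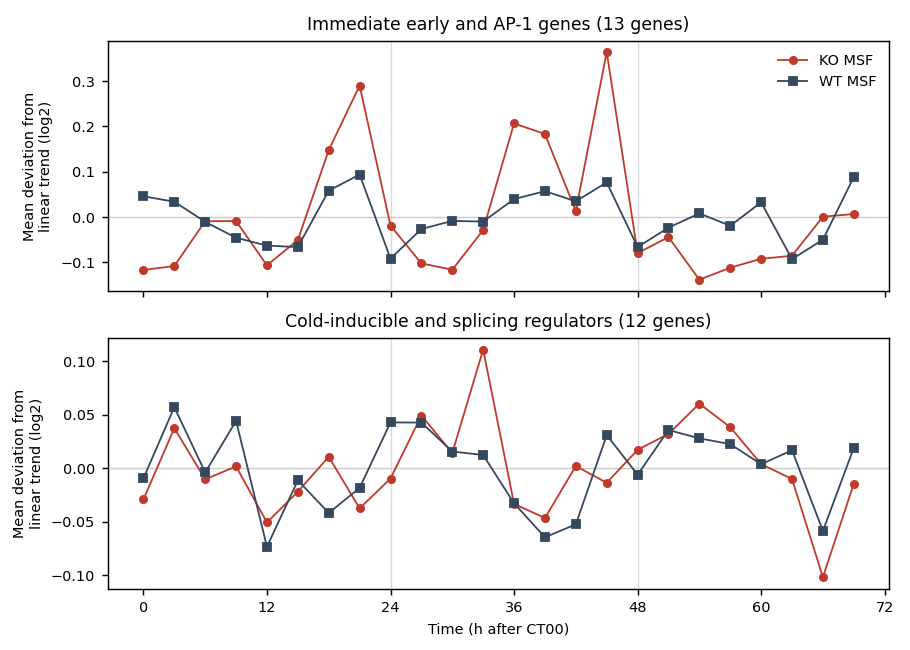
Mean deviation from the linear trend (log2, vertical axis) of the immediate early and AP-1 list and of the cold-inducible and splicing list against time after CT00 (h, horizontal axis), KO as circles and WT as squares. The KO immediate early mean reaches 0.148 to 0.364 at CT18, CT21, CT36, CT39 and CT45 and does not exceed 0.007 on the third day.

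Cold-inducible RNA-binding proteins and splicing kinases, some of which respond to small shifts of temperature, were counted as 1 list of 12. In KO cells 3 (25%) had an unadjusted p below 0.05, Srsf5, Clk4 and the splicing activator Tra2a, whose amplitude was 0.048 ± 0.016 with a peak at 5.17 h. In WT cells it was 4 of 12, Srsf5, Tra2a, Clk1 and Hnrnpdl. Srsf5 and Clk4 are also among the 25 leading genes, which the same KO p ranked. Of the 12, 9 had a KO peak between 2 and 8 h. The defining cold-inducible members had no such p, with Cirbp at 0.348 and Rbm3 at 0.352 in KO cells. The KO count was 3 to 5 when each time point was left out, and 5 without CT18. Hnrnpa2b1, a splicing regulator that is not on the list and was chosen after its values were seen, had a fitted wave of 0.109 that crested at 5.94 h (unadjusted p of 9.64e-04) in KO cells, and 0.078 with a peak at 4.55 h and a p of 0.00287 in WT cells.

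The remaining lists had 0 to 3 such genes each in KO cells. ETS factors had 3 of 14, Etv4, Etv6 and Elf4, and 1 of 14 without CT18. Glucocorticoid-response genes had 2 of 15, Per1 and the phosphatase gene Dusp1, whose wave of 0.196 ± 0.060 crested at 20.1 h. Heat shock genes had 2 of 14 (Hspa1b and Hspe1), peroxiredoxins and other redox enzymes 2 of 18 (Txn2 and Gpx4), and chemokines and inflammatory genes 2 of 11 (Ccl7 and Ptgs2). Of the peroxiredoxins, whose protein oxidation cycles daily in many organisms, no gene had an unadjusted p below 0.05 in KO cells. These counts of 2 moved when 1 library was left out. Glucocorticoid-response genes had 1 without CT09, CT30, CT57 or CT69, 4 without CT60 and 4 without the 5 deepest libraries. Heat shock genes had 1 without CT21 and 3 without CT09, redox enzymes 1 to 3 (3 without CT48), and chemokines 1 to 3 (3 without CT12, CT18 or CT24). SRF and actin targets had 1 of 11 (Actg1), cell division genes 1 of 17 (Bub1; 0 to 2, and 2 without CT24), ribosomal proteins 1 of 14 (Rpl4), and NAD salvage and sirtuin genes 1 of 12 (Nmnat3). There were 0 in NRF2 targets (13 tested), the integrated and ER stress response (15), cholesterol synthesis (15), collagens and matrix (14), the interferon response (14), oxidative phosphorylation (13), glycolysis and hypoxia (15) and the proteasome (12). Leaving out 1 library gave up to 3 in the stress response (without CT51), up to 2 in oxidative phosphorylation (without CT45 or CT51), and up to 1 in the other lists at 0. Ribosomal proteins and the NAD list reached 2, and the clock activators, repressors and outputs reached 1, 2 and 1.

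The libraries differed in depth. FPKM give no read counts, but the steps between low values gave relative depths from 0.644 to 4.10 times the KO median, with CT03, CT12, CT21, CT36 and CT60 at 3.00 or more. No 24 h wave of a library measure passed in KO cells. The permutation p was 0.313 for the scaling factor, 0.417 for the summed FPKM, 0.405 for the share of the 10 most abundant genes, 0.298 for the number of genes at 0 and 0.322 for relative depth (100000 permutations of time, 24 libraries, on the size of the wave, which has no sign), each 0.417 after adjustment. Depth as a covariate gave 891 genes with an unadjusted p below 0.05, and leaving out the 5 deepest libraries gave 823, with 0 called in both. The fit without the 5 deepest libraries has no library at clock hour 12. The cells had the markers of fibroblasts, with Dcn at 2731 to 4636 FPKM and Vim at 1507 to 2004 FPKM in KO libraries, although Col1a1, Col1a2 and Col3a1 were listed at 0 in 4, 1 and 5 of them. These collagen genes were not tested, because their status was not OK in every KO column, and an exact 0 there can be a failed estimate. The 4 keratinocyte genes summed to 0.485 to 1.56 FPKM in KO cells and 0.982 to 1.97 FPKM in WT cells, with Krt1, Krt5 and Krt14 at a KO median of 0 and Krt10 at 0.995 FPKM. The 4 macrophage genes summed to 1.24 to 2.77 FPKM in KO cells and 0.838 to 2.36 FPKM in WT cells, with Ptprc and Adgre1 at a KO median of 0, Csf1r at 0.450 FPKM and Cd68 at 1.58 FPKM. The 4 endothelial genes summed to 1.75 to 4.26 FPKM in KO cells and 6.47 to 13.1 FPKM in WT cells, with Cdh5 at a KO median of 0, Pecam1 at 0.123 FPKM, Kdr at 0.737 FPKM and Tek at 1.37 FPKM. The adipocyte list reached 4.76 FPKM in KO cells and 1.45 FPKM in WT cells, mostly from Fabp4, with a KO median of 3.24 FPKM, and the melanocyte list 1.93 FPKM in KO cells and 1.13 FPKM in WT cells, mostly from Pmel, with a KO median of 1.13 FPKM. Schwann cell genes reached 2.39 FPKM in KO cells and 1.56 FPKM in WT cells, and skeletal muscle genes 0.355 FPKM in KO cells and 0.215 FPKM in WT cells. The smooth muscle list summed to 140 to 232 FPKM in KO cells and 343 to 435 FPKM in WT cells, with Acta2 at 102 to 177 FPKM in KO cells and 257 to 330 FPKM in WT cells. The part of other cells in the waves was not tested.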

How the data were processed

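Stranded poly(A) libraries were read from one end over 50 bases, per the labels' protocols. TopHat2 2.1.0, Cuffdiff and the build GRCm38 are named in the submitters' processing notes. The authors deposited FPKM per gene with the ends of a confidence interval, 1 value per gene and time point. The labels state 3 cultures per time point, but each point has 1 value, so p-values measure the spread between time points. How libraries were scaled, and which gene annotation was used, is not given in the sources used here. No fibroblast column was left unused (0 columns). FPKM are not counts, and absolute depth is unknown. No counting interval was computed, and the authors' interval is quoted for single genes.

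Values were analysed as log2(FPKM + 1) with limma 3.58.1 in R 4.3.3 by a moderated F test with a variance trend on the 24 h terms, and Benjamini-Hochberg adjustment ran over every gene tested. SE of amplitudes are by the delta method, and upper limits are of the 95% joint confidence region. Genotypes were compared over 48 columns by letting the 24 h terms differ between them. Slices were fitted in their own table, without the filter on status. The fits were tested on simulated data. Relative depth was read from genes above 0 in at most 12 libraries, as the commonest ratio of their values.

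Genes were named as the 25 of lowest p, the 8 largest amplitudes with an unadjusted p below 0.01 and a mean of at least 5 FPKM, the clock lists, the 2 of lowest p in each other list, the genes called in WT cells or between genotypes, and 5 with a peak within 1 h of that of the first gene. The members and the 22 lists, of 311 genes, were chosen with earlier results of these data known. The use of relative depth and the correlations between genotypes were chosen after seeing the data. Settings varied were the pseudocount, the filter, scaling, the trend, index series, days, single time points, correlated errors, ranks, the variance model, the period and a block for time points.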

Additional observations from a re-analysis of the deposited data

Results flagged for a closer look

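The wave of BC003965 differed between genotypes, by a test of the difference itself. The difference had an amplitude of 0.186 on the log2 scale (limma, adjusted p = 0.0128), with a peak at 2.08 h in KO cells and at 12.7 h in WT cells. The adjusted p over the other 18 settings at 24 h ran from 0.00359 to 0.975. The gene was at about 5 FPKM in both genotypes, and the authors' interval around a single KO value reached a median of 20.6% of the value to either side, beside a fitted peak 1.13 times the trough in KO cells.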

How the results depend on the processing

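In KO cells the count of called genes was 0 except with day as a factor (179), prewhitened (2) and without CT42 (1), with 0 to 1 over the fits without 1 time point. The count at an unadjusted p below 0.05, 875, became 1414 of 30348 genes with no filter on low values, 1915 with day as a factor and 1374 prewhitened, and was 829 to 906 over the fits without 1 time point. Of the 179 genes, 126 had a rising trend and a peak at 14 to 20 h and 44 a falling one and a peak at 2 to 8 h. Trend and wave cannot be told apart in that fit. Of 103 single genes described, 20 were called with day as a factor, 2 prewhitened (Gm24615 and 6720427I07Rik) and 1 without CT42 (Gm24615).

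In WT cells the 5 called genes became 3 unfiltered, 2 when the trend was dropped, 41 with day as a factor, 0 from CT00 to CT33 or CT36 to CT69 alone, 0 without day 1 or day 2, 3 without day 3, 8 with ranks, 0 at 12, 18, 20 and 22 h, 13 at 26 h, 10 at 28 h and 1 at 30 h, and 2 to 8 over the fits without 1 time point. The 1061 genes became 1678 with no filter, 1942 with day as a factor, 559 at 12 h and 678 at 18 h, and 914 to 1231 without 1 time point.

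For the difference, the 1 called gene became 2 when the trend was dropped, 71 with day as a factor, 2 with quadratic time, 0 from CT36 to CT69 alone, 0 without day 1 or day 2, 3 without day 3, 3 prewhitened, 0 at 12, 18, 20 and 30 h and 2 at 26 h, and 0 to 4 without 1 time point. The 705 genes became 1324 with no filter, 1452 with day as a factor and 1113 prewhitened, and 642 to 764 without 1 time point. With the time point as a replicate block, 1 gene was called and 853 had an unadjusted p below 0.05. KO and WT libraries of a time point did not deviate together (correlations of deviations from -0.043 to 0.056, 0 of 24 above 0.1, and 0 of 24 highest with their own number). The cause of these shifts was not tested. One value per time point and unknown counts limit what waves under about 0.1 can show, since the KO upper 95% limit had a median of 0.154 over all genes.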

Other observations

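Some genes deviated alike in both genotypes beyond the trend and the 24 h wave. Over the 24 time points, the KO and WT deviations of Srsf5 had a Pearson r of 0.606 (permutation p = 0.00186, adjusted 0.0260) and a Spearman rho of 0.676 (permutation p = 4.9e-04, adjusted 0.0137), and r was 0.634 without the 2 KO values farthest from the median. For Junb r was 0.574 (permutation p = 0.00339, adjusted 0.0316), rho was 0.564 (permutation p = 0.00435, adjusted 0.0304) and r without 2 values was 0.606. For Gm21781 r was 0.663 (permutation p = 5.7e-04, adjusted 0.0160), rho was 0.623 (permutation p = 0.00172, adjusted 0.0241) and r without 2 values was 0.561. These 3 of 28 genes tried passed the adjustment of r, and 6 of the 25 leading genes had an r above 0.4, against 7.87% of 14789 genes. Neighbouring time points may not be independent, and the index codes shared by KO and WT libraries of a time point were not tested as a source.

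Long noncoding RNAs often measured beside splicing factors, chosen after their values were seen, differed among themselves. The Meg3 wave was 0.059 and crested at 5.10 h in KO cells (unadjusted p of 0.0175), and was 0.095 and crested at 6.54 h in WT cells (unadjusted p of 0.0280). Malat1 had an unadjusted p of 0.636 in KO cells and 3.71e-04 in WT cells, and Neat1 0.762 in KO cells and 0.0876 in WT cells. Snhg12, Kif22 and Igf2 were also picked after values were seen and are not described here.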
